A study of Mus musculus with 11 samples.

Results

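The 10 genes described here encode transcription factors and a coactivator known from germinal center (GC) B cells: Bcl6, Bach2, Pax5, Ebf1, Irf8, Spib, Pou2af1, Mef2b, Bcl11a and Hhex. They were taken as a list of mouse symbols, each found by its Ensembl identifier, and all 10 were present among the 48795 genes of the deposited table of TPM, a unit in which the reads estimated for a gene are divided by its length and every library is then brought to the same total. RNA was sequenced from splenic light zone (LZ) GC B cells of 4 Myc WT mice and 4 mice carrying Myc V394D (Myc VD), a point mutation that prevents MYC from binding its partner MIZ1, and from memory B cells (MBCs) of 3 of the same Myc WT mice. All mice were females of 8 to 12 weeks, and all were killed on day 10 after immunization with sheep red blood cells (SRBCs), so that no group comes from resting animals. LZ B cells were sorted as B220+, CD138neg, IgDneg, CD38neg, Fas+, CD86high and CXCR4low, and MBCs as B220+, CD138neg, IgDneg, CD38+ and CD273+. The mutation sits in the endogenous Myc locus and is carried by every cell of the animal rather than by B cells alone, and its zygosity is not given in the sources used here. Each library is 1 mouse and 1 cell type. The sample titles of Myc WT mice 1 to 3 share 1 code, that of Myc WT mouse 4 has another and those of the Myc VD mice (numbered 5 to 8) share a further one. What the codes stand for is not stated in the sources used here, and whatever they mark cannot be told apart from genotype.

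A mature B cell keeps its identity through PAX5 and EBF1, which hold the genes of the B cell receptor and its signalling chain active. On entry into the GC, BCL6 is added as a repressor that silences genes of cell cycle arrest, of egress and of plasma cell differentiation, with BACH2 holding back the same plasma cell program. MEF2B, IRF8, SPIB and the octamer coactivator encoded by Pou2af1 sustain this state, and cells that leave the LZ as MBCs switch part of it off.

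3 of the 10 genes set MBCs apart from LZ B cells most clearly, Bcl6, Mef2b and Hhex, and the 250 bases before a RefSeq transcription start of each are given below (GRCm38.p6, read 5′ to 3′ on the strand of the gene). Bcl6 lies on the minus strand with its window at chr16:23988853-23989102, Mef2b on the plus strand at chr8:70152511-70152760, and Hhex on the plus strand at chr19:37434591-37434840. The window of Mef2b falls inside the longer gene span that GENCODE gives for this gene. Capitals mark a match to a searched motif.
Bcl6: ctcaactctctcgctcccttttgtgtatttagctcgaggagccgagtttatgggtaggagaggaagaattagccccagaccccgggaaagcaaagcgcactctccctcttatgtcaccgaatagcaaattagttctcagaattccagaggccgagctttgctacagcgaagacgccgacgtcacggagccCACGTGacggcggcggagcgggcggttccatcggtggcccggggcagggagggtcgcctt
Mef2b: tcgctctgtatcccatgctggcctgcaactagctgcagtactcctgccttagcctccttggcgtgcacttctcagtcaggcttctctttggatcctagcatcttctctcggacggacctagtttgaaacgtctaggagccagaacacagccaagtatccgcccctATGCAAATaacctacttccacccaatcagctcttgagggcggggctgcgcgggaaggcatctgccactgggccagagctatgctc
Hhex: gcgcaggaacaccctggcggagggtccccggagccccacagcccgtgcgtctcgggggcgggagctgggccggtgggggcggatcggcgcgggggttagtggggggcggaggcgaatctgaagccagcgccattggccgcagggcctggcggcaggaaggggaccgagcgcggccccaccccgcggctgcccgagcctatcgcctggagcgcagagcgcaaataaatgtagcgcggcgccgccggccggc

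In the window of Bcl6 the capitals are the E-box CACGTG, the letters that MYC with its partner MAX is known to bind, beginning 60 bases before the start. In that of Mef2b they are the octamer ATGCAAAT, the letters read by OCT factors together with the product of Pou2af1, beginning 85 bases before the start. Of 32851 windows of all genes, searched on both strands, 6.02% held the E-box and 1.6% the octamer, and the 13 windows of the 10 genes held each of them once. The BCL6 site TTCCTAGAA was in 0.347% of all windows and in 0 of the 13. GC content was 58.4% in the window of Bcl6, 56% in that of Mef2b and 76% in that of Hhex. These matches are a description of the letters, and no binding was measured in these libraries.

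Among the LZ libraries of Myc WT mice, Pou2af1 stood highest of the 10 genes with 996 ± 310 TPM (SD, n = 4), followed by Spib with 245 ± 32.1 and Pax5 with 230 ± 50.7. Bcl6, Bach2, Bcl11a, Ebf1 and Irf8 lay between 116 and 185 TPM on average, Mef2b was at 90.8 ± 15.1 and Hhex was lowest at 14.6 ± 4.99 TPM (SD, n = 4 for each). The means of Spib and Pax5, of Bcl6 and Bach2 and of Bcl11a, Ebf1 and Irf8 differed by less than the SD between mice of at least one gene of each pair. In MBCs Pou2af1 still had the highest mean, followed by Pax5 and by Bcl11a at 254 ± 37.9 TPM, which lay ahead of Spib and Irf8. Hhex was at 125 ± 7.83, and Bcl6 with 41.7 ± 16.2 and Mef2b with 2.99 ± 2.76 TPM (SD, n = 3) were last. Pou2af1 alone made up 25.3 to 48.9% of the summed TPM of the 10 genes in a library, and that sum ranged from 1471.1 to 3103.0 TPM.

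**Figure D1:**
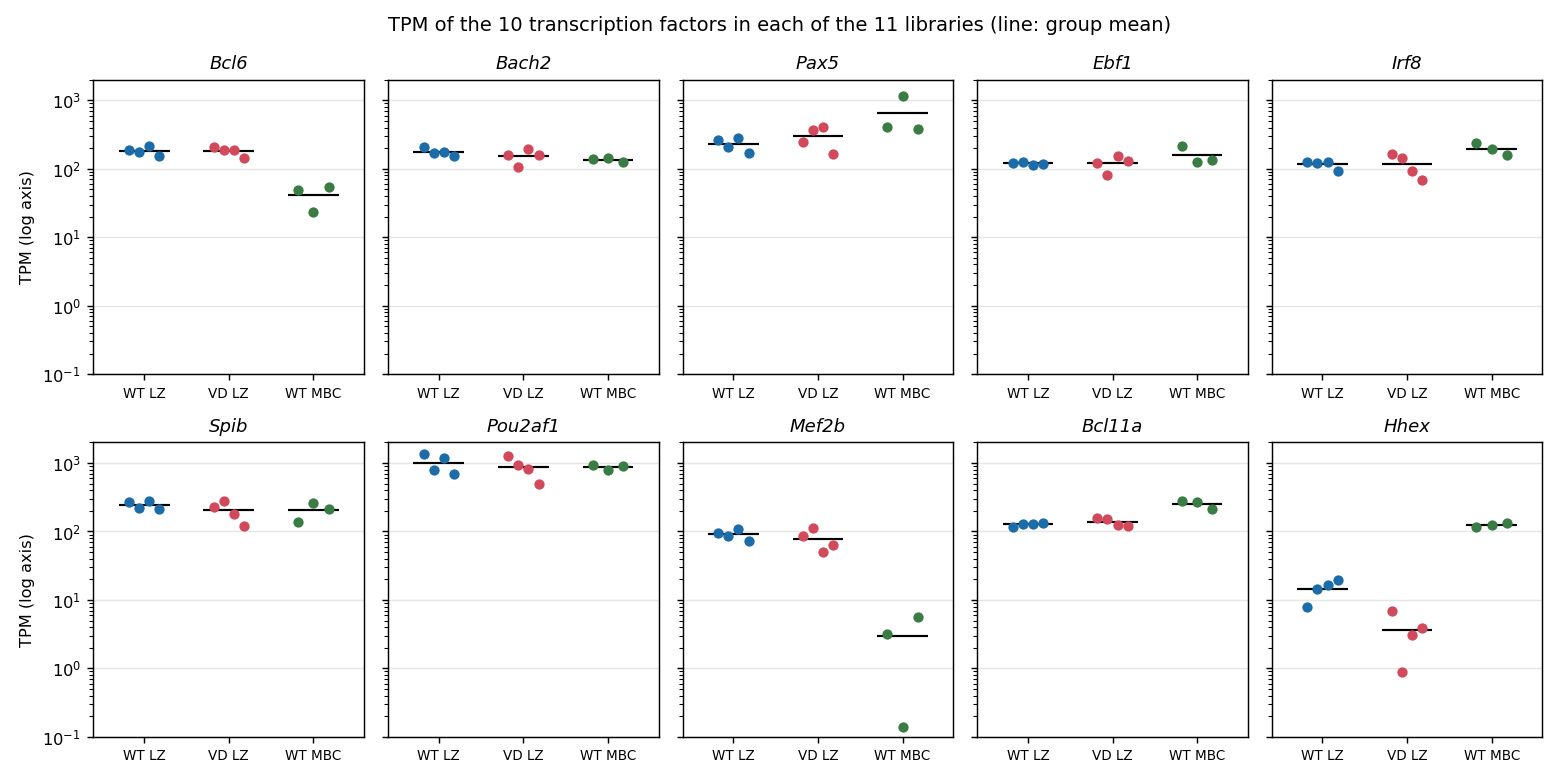
TPM on a log axis of each of the 10 genes in 4 Myc WT LZ (blue), 4 Myc VD LZ (red) and 3 Myc WT MBC libraries (green), in the order of the mouse numbers, with 1 point per library and a line at the group mean. The MBC points of Bcl6 and Mef2b lie below, and those of Hhex above, all LZ points of the same gene.

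TPM hold no read depth, so the spread between mice is the only error given. From 15460 to 19537 genes were above 0 in Myc WT LZ libraries, 13169 to 16421 in Myc VD LZ and 11527 to 16040 in MBCs, and ribosomal RNA took 35.7 to 44.5%, 44.1 to 61.3% and 36.1 to 37.5% of TPM. Across genes, log2(TPM + 1) correlated with r of 0.964 to 0.981 between Myc WT LZ libraries, 0.925 to 0.95 between Myc VD LZ libraries and 0.834 to 0.897 between MBC libraries. The sorted populations carried their labels: GC B cell markers summed to 1555.1 to 2025.6 TPM in Myc WT LZ, 1329.8 to 1822.0 in Myc VD LZ and 649 to 882 in MBCs (5 of 9 genes lower in MBCs than in Myc WT LZ by limma), and MBC markers to 41.3 to 45.4, 20.7 to 51.3 and 569 to 883 TPM (6 of 8 genes higher, among them Cd38 and Pdcd1lg2, whose products CD38 and CD273 were used in the gate). In MBCs, all 5 markers of naive follicular B cells were higher too (795 to 900 TPM against 217 to 236). Of all genes tested, 4.17% were called higher and 5.04% lower in MBCs. Of 8 myeloid markers 3 were tested, and Csf1r and Itgam were higher in MBCs. The summed level of the 8 was 16.1 to 168 TPM against 0.82 to 9.15, while S100a8 and S100a9 were listed at 0 in MBCs. Dendritic cell markers summed to 16.5 to 36.3 TPM in MBCs and 9.89 to 18 in Myc WT LZ, T cell markers to 0 to 31.7 and 34.2 to 68.5, plasma cell markers to 190 to 359 and 274 to 446 (Tnfrsf17 listed at 0 in every library) in the same order. In Myc WT LZ, Lck at 32.98 to 66.53 TPM leads the T cell sum and Flt3 at 7.82 to 15.94 TPM the dendritic sum. Cd3e, Cd3d, Cd3g, Cd4, Cd8a and Cd28 were each at 1.99 TPM or less there. The 6 dark zone markers summed to 616 to 967 TPM in MBCs and 328 to 559 in Myc WT LZ, a sum that Foxp1 leads, while 1 of the 6 was called higher (Foxp1), 3 were called lower (Gcsam, Plk1 and Ccnb1) and their median log2 difference was -2.04. With the mouse as a block, 4 GC B cell markers were called lower and 5 MBC, 3 naive follicular and 0 myeloid markers higher in MBCs, and of the dark zone markers 1 was called higher and 1 lower. Csf1r, Itgam, Ccr7 and Cd80 averaged under 1 TPM in Myc WT LZ and entered the test through the MBC libraries alone, so that they could differ in 1 direction only and give no support. Without MBC mouse 3, 6 GC B cell and 2 erythroid markers were called lower. Summed levels in Myc VD LZ were 196 to 261 TPM for naive follicular, 0 to 12.4 for myeloid, 7.54 to 26.4 for dendritic, 26.8 to 45 for T cell, 132 to 265 for plasma cell and 320 to 622 for dark zone markers. The MBC library of mouse 3 stood apart by its haemoglobin, with Hba-a1 at 1645.9 and Hba-a2 at 1943.18 TPM. Its erythroid markers made up the top of a range of 5.25 to 4103.1 TPM in MBCs, against 87.1 to 135 in Myc WT LZ and 42.9 to 215 in Myc VD LZ. The part of these other cells and of haemoglobin RNA in the differences below was not tested.

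To ask which of the 10 genes change when GC B cells become MBCs, the 3 MBC libraries were compared with the 4 LZ libraries of Myc WT mice by limma on log2(TPM + 1), where the added 1 shrinks changes of low genes. At an adjusted p under 0.05, 4 of the 10 genes were called: Bcl6 and Mef2b were lower in MBCs, and Bcl11a and Hhex were higher. These are 2 of 10 in each direction, where 4.17% of 13245 genes tested were called higher and 5.04% lower. MBC and LZ libraries did not overlap for 5 genes that lay higher (Pax5, Ebf1, Irf8, Bcl11a and Hhex) and 3 that lay lower (Bcl6, Bach2 and Mef2b), against 11.8% and 14.4% of all genes tested. Without MBC mouse 3 there were 5 and 4 such genes, against 21.5% and 18.3% of all genes. The median log2 difference of the 10 genes was 0.11 and that of all genes tested was -0.14. Since the RNA was taken from sorted populations, fewer cells that express a gene and less RNA per cell cannot be told apart.

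**Figure D2:**
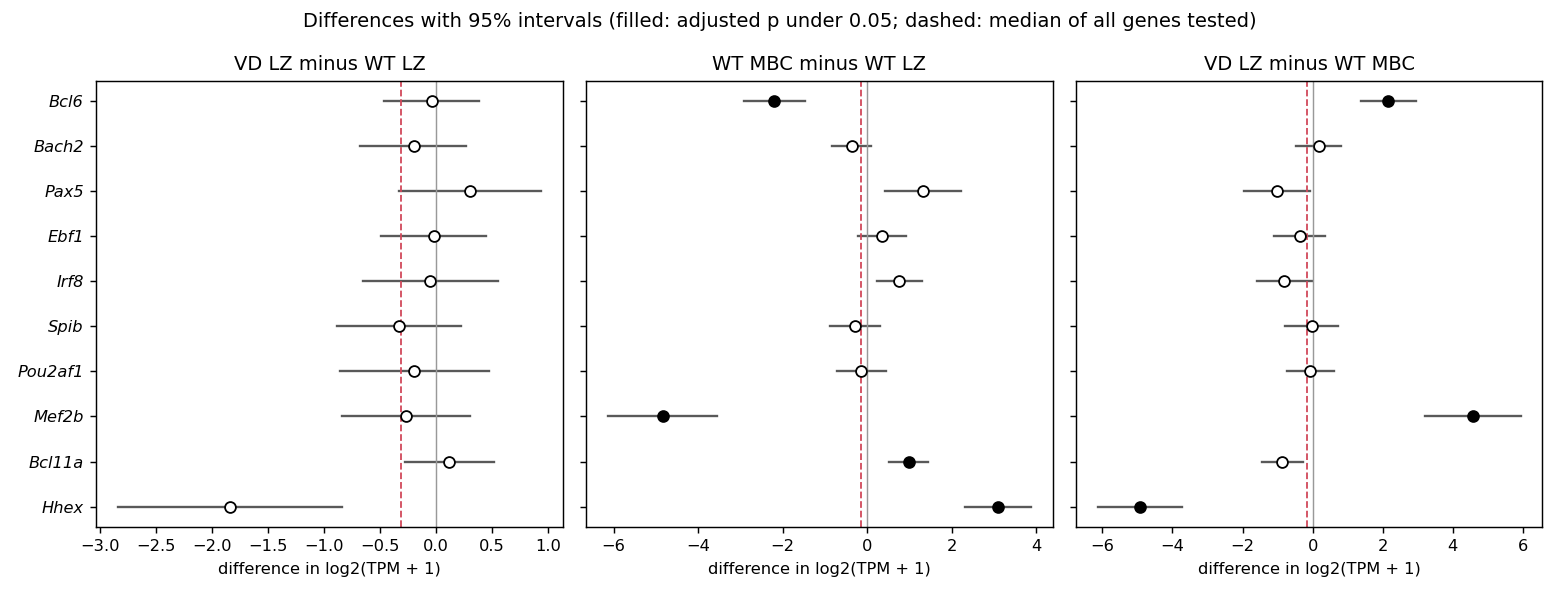
Difference in log2(TPM + 1) of each of the 10 genes in 3 comparisons with its 95% confidence interval from limma. Filled points had an adjusted p under 0.05, the dashed line is the median difference of all genes tested, and the panels have different horizontal scales. In Myc VD LZ against Myc WT LZ all 10 points are open, and Hhex lies farthest from the others at -1.84.

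Bcl6 (ENSMUSG00000022508, GRCm38 chr16:23965052-23988852, minus strand), the repressor that defines the GC state, was at 190.76, 177.09, 214.83 and 156.14 TPM in LZ B cells of Myc WT mice 1 to 4. In Myc VD mice 5 to 8 it was at 207.04, 186.59, 185.02 and 141.70 TPM. In MBCs of mice 1, 3 and 4 it was at 48.67, 23.19 and 53.35 TPM. Every MBC value was below every LZ value and by a wide gap, whereas both genotypes of LZ B cells covered the same range. Bcl6 was thus 4.43-fold lower in MBCs by the group means, with a log2 difference of -2.20 (SE 0.32, 95% confidence interval -2.92 to -1.47, limma adjusted p = 0.00594). The difference was called under all 16 alternative settings and ranged from -2.41 to -1.83 when a library was left out, the smallest without MBC mouse 3. MBCs still held Bcl6 at the 88.3rd percentile of protein-coding genes. Against Myc VD LZ B cells the gene was 4.31-fold lower in MBCs (log2 difference 2.16 for Myc VD LZ minus MBC, SE 0.36, limma adjusted p = 0.00837), a call that was lost in limma without a trend (adjusted p = 0.0561).

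Bach2 (ENSMUSG00000040270, chr4:32238804-32586108, plus strand), a repressor of the plasma cell regulator Prdm1 that is also known to favour the MBC fate, was at 206.01, 170.98, 174.40 and 151.76 TPM in Myc WT LZ. Its values were 161.03, 106.67, 191.36 and 161.44 TPM in Myc VD LZ and 138.09, 141.52 and 124.83 TPM in MBCs. MBCs lay below all Myc WT LZ values, by a narrow gap, but inside the range of Myc VD LZ. The log2 difference of MBCs to Myc WT LZ was -0.37 (95% confidence interval -0.84 to 0.09, limma adjusted p = 0.277, exact permutation p = 0.0571), so that Bach2 did not pass the test and a loss of more than 0.84 lies outside the interval.

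Bcl11a (ENSMUSG00000000861, chr11:24078056-24174123, plus strand), a zinc finger repressor that lymphoid progenitors need, was at 116.80, 130.24, 128.11 and 134.23 TPM in Myc WT LZ. It was at 157.50, 152.66, 124.73 and 122.01 TPM in Myc VD LZ and at 279.69, 272.73 and 210.80 TPM in MBCs. The MBC values were the 3 highest of all 11 libraries. The mean of Bcl11a in MBCs was 2 times that in Myc WT LZ, with a log2 difference of 0.98 (SE 0.20, 95% confidence interval 0.52 to 1.44, limma adjusted p = 0.0218). This call was less firm than those of Bcl6, Mef2b and Hhex: with the mouse as a block the log2 difference was 0.99 with a limma adjusted p of 0.175, without a trend the adjusted p was 0.0906, and with any 1 Myc WT LZ library left out it was 0.0529 to 0.0807. Against Myc VD LZ the groups did not overlap either (log2 difference -0.86 for Myc VD LZ minus MBC, 95% confidence interval -1.45 to -0.28, limma adjusted p = 0.105, exact permutation p = 0.0286, the smallest this design allows), and that difference was called where all 3 groups entered 1 fit (adjusted p = 0.0196).

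Pax5 (ENSMUSG00000014030, chr4:44524757-44710487, minus strand), which commits cells to the B lineage, was at 259.47, 210.06, 282.30 and 169.20 TPM in Myc WT LZ and at 246.52, 366.21, 407.15 and 165.34 TPM in Myc VD LZ. In MBCs of mice 1, 3 and 4 it reached 407.57, 1171.16 and 380.36 TPM. The MBC values lay above all Myc WT LZ values, and that of mouse 3, the library with haemoglobin, was far above the others. The log2 difference to Myc WT LZ was 1.32 (SE 0.40, 95% confidence interval 0.43 to 2.22), which missed the threshold with a limma adjusted p of 0.0703 (exact permutation p = 0.0286, the smallest possible). Without MBC mouse 3 the difference was 0.80 (adjusted p = 0.0743), whereas without MBC mouse 4 it was 1.61 and passed (adjusted p = 0.0404), as it did with all 3 groups in 1 fit (adjusted p = 0.047). Against Myc VD LZ the log2 difference was -1.02 for Myc VD LZ minus MBC (limma adjusted p = 0.228).

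Ebf1 (ENSMUSG00000057098, chr11:44617317-45008091, plus strand), the partner of Pax5 in B cell identity, was the steadiest of the 10 genes among Myc WT LZ libraries, with 121.84, 124.45, 113.90 and 119.15 TPM. It was at 122.23, 81.52, 152.66 and 128.13 TPM in Myc VD LZ and at 215.39, 124.81 and 133.64 TPM in MBCs. Only MBC mouse 1 stood clear of the LZ libraries, and the lowest MBC value was less than 1 TPM above the highest Myc WT LZ value. The log2 difference of MBCs to Myc WT LZ was 0.35 (95% confidence interval -0.21 to 0.91, limma adjusted p = 0.393, exact permutation p = 0.0286).

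Irf8 (ENSMUSG00000041515, chr8:120736358-120756694, plus strand), an interferon regulatory factor that acts on Bcl6 in GC B cells and is also used by myeloid and dendritic cells, was at 124.15, 121.94, 124.71 and 91.43 TPM in Myc WT LZ. Myc VD LZ B cells had 162.40, 143.66, 92.45 and 69.33 TPM, and MBCs had 238.09, 196.55 and 156.97 TPM. MBCs were above all Myc WT LZ values, but Myc VD mouse 5 was above MBC mouse 4. The means differed 1.71-fold, with a log2 difference of 0.76 (SE 0.24, 95% confidence interval 0.22 to 1.29) that did not pass (limma adjusted p = 0.0795) unless MBC mouse 4 was left out (0.91, adjusted p = 0.0368). MBC mouse 4, which had the lowest Irf8 of the MBCs, had the highest level of the myeloid marker Lyz2 (135.59 TPM). Of the 8 dendritic cell markers, some were highest in MBC mouse 1, which had the highest Irf8 (Siglech at 11.02 TPM against 0 in the other MBCs), and others in MBC mouse 4 (Zbtb46 at 6.57 TPM against 0.13 in mouse 1). The part of such cells in the Irf8 values was not tested. Irf8 lies within the larger annotated gene Gm20388 on the same strand, which was at 6.31 TPM or less in every library.

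Spib (ENSMUSG00000008193, chr7:44525993-44532071, minus strand), an ETS factor that acts downstream of the B cell receptor and binds with interferon regulatory factors, was at 270.88, 218.96, 274.89 and 215.84 TPM in Myc WT LZ. It was at 230.14, 277.46, 181.83 and 121.43 TPM in Myc VD LZ and at 138.73, 263.42 and 214.12 TPM in MBCs. The 3 groups overlapped. The log2 difference of MBCs to Myc WT LZ was -0.29 (95% confidence interval -0.88 to 0.29, limma adjusted p = 0.502).

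Pou2af1 (ENSMUSG00000032053, chr9:51213708-51240080, plus strand), the coactivator of OCT factors without which GCs do not form, was at 1336.43, 781.45, 1175.62 and 690.35 TPM in Myc WT LZ. In Myc VD LZ it was at 1267.50, 943.91, 829.29 and 494.31 TPM, and in MBCs at 923.88, 785.05 and 913.85 TPM. MBC values fell within the range of LZ B cells of both genotypes, and the spread among LZ mice was wider than any difference between groups. The log2 difference of MBCs to Myc WT LZ was -0.14 (95% confidence interval -0.71 to 0.44, limma adjusted p = 0.767).

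Mef2b (ENSMUSG00000079033, chr8:70139711-70167488, plus strand), an activator of Bcl6 in GC B cells, showed the largest loss of the 10 genes. It was at 96.32, 85.37, 108.47 and 73.16 TPM in Myc WT LZ and at 85.88, 111.32, 50.73 and 63.53 TPM in Myc VD LZ. In MBCs of mice 1, 3 and 4 it was at only 3.19, 0.14 and 5.64 TPM. The highest MBC value was below the lowest LZ value of either genotype by a wide margin. By group means Mef2b was 30.4-fold lower in MBCs than in Myc WT LZ, with a log2 difference of -4.84 (SE 0.57, 95% confidence interval -6.14 to -3.55, limma adjusted p = 0.00283), and the call held under all 16 alternative settings. The difference was -4.11 without MBC mouse 3, which had the lowest value, and -5.38 without MBC mouse 4. Against Myc VD LZ the loss was 26-fold (log2 difference 4.58 for Myc VD LZ minus MBC, SE 0.63, limma adjusted p = 0.00298). Mef2b shares its strand and part of its span with Borcs8 (chr8:70139499-70147319), whose reads the quantification could in part assign to either gene. Borcs8 was at 87.32 to 107.61 TPM in Myc WT LZ and 21.75 to 72.59 TPM in MBCs (log2 difference -1.51, limma adjusted p = 0.0513).

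None of the other MEF2 genes was called in MBCs against Myc WT LZ. Mef2a was at 69.01 to 90.14 TPM in Myc WT LZ and 87.56 to 151.61 in MBCs (log2 difference 0.43, limma adjusted p = 0.343), and Mef2c, the most abundant of the family, at 463.75 to 614.94 and 480.56 to 852.4 TPM (0.28, adjusted p = 0.47). Mef2d was at 40.28 to 68.83 TPM in Myc WT LZ and 79.71 to 274.54 in MBCs, with the highest value in the MBC library of mouse 3 (1.39, adjusted p = 0.0822). Whether Mef2b differs in its change from its relatives was not tested as an interaction.

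**Figure D3:**
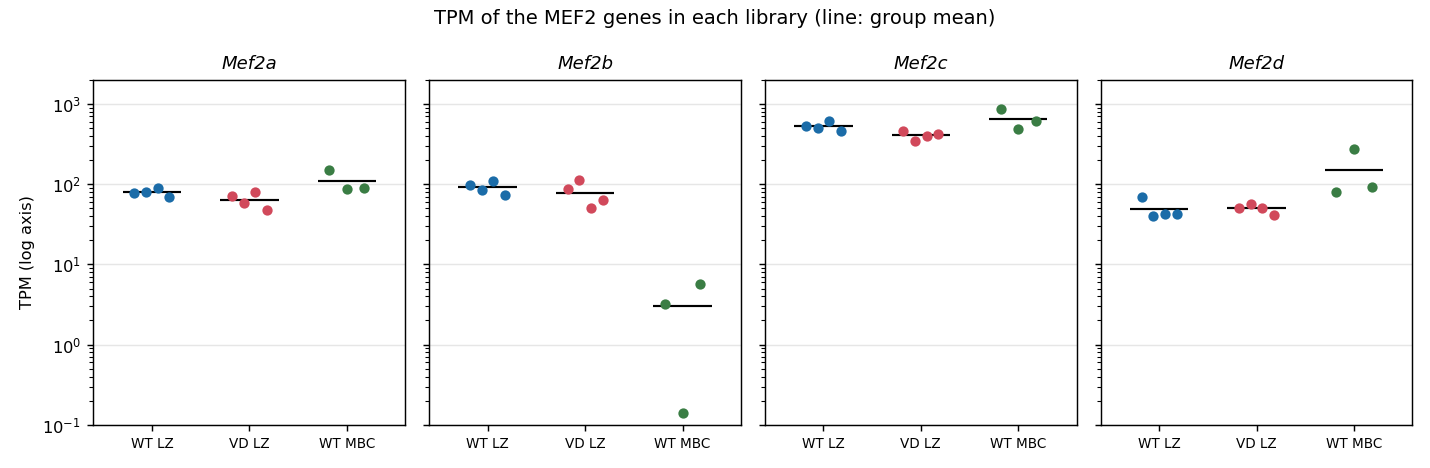
TPM on a log axis of the 4 MEF2 genes in Myc WT LZ, Myc VD LZ and Myc WT MBC libraries, with 1 point per library and a line at the group mean. Mef2b is at 73.16 TPM or more in Myc WT LZ and at 5.64 TPM or less in MBCs, while Mef2a, Mef2c and Mef2d are at 40.28 TPM or more in all libraries shown.

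Hhex (ENSMUSG00000024986, chr19:37434810-37440731, plus strand), a homeobox repressor known to promote MBC formation together with the corepressor TLE3, went against the grouping of these genes as GC factors. It was at 7.79, 14.27, 16.69 and 19.48 TPM in Myc WT LZ and at 6.96, 0.88, 3.05 and 3.88 TPM in Myc VD LZ, the lowest of the 10 genes in both. In MBCs of mice 1, 3 and 4 it was at 117.97, 124.47 and 133.55 TPM. The MBC values were the closest together of the 10 genes in that group relative to their mean and lay far above every LZ library. Hhex was 8.61-fold higher in MBCs than in Myc WT LZ (log2 difference 3.09, SE 0.35, 95% confidence interval 2.30 to 3.88, limma adjusted p = 0.00238), with a range of 2.83 to 3.24 when a library was left out and a call under all 16 alternative settings. Against Myc VD LZ it was 33.9-fold higher (log2 difference -4.93 for Myc VD LZ minus MBC, SE 0.55, limma adjusted p = 0.00121). Of all protein-coding genes, Hhex stood at percentile 76 in Myc WT LZ, 62.8 in Myc VD LZ and 96.7 in MBCs.

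The genotype comparison asks whether the loss of MYC binding to MIZ1 alters this set of factors in LZ B cells. In Myc VD against Myc WT LZ, limma called 0 of the 10 genes at an adjusted p under 0.05, where 0.00777% of 12869 genes were called higher and 0.0389% lower. Without adjustment, Hhex alone had a p under 0.05, 1 of 10 on the lower side and 0 on the higher, against 15.7% of all genes lower and 1.24% higher. Its groups were also the only ones that did not overlap, against 9.16% of all genes on the lower and 0.816% on the higher side, so that the count of 1 in 10 is near the background. The median log2 difference was -0.12 for the 10 genes and -0.31 for all genes tested, a shift of the whole table that goes to -0.01 with median ratio scaling. Ribosomal RNA took a larger share in Myc VD libraries, as given above, and its part in the shift was not tested. 8 of the 10 genes lay above the median of all genes, the exceptions being Spib and Hhex.

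Hhex was lower in every Myc VD mouse than in any Myc WT mouse, although Myc VD mouse 5 with 6.96 TPM came close to Myc WT mouse 1 with 7.79 TPM. The group means were 14.6 ± 4.99 and 3.69 ± 2.52 TPM (SD, n = 4 each), 3.94-fold apart. The log2 difference of -1.84 (SE 0.46, 95% confidence interval -2.84 to -0.84) had an unadjusted p of 0.00179 and a limma adjusted p of 0.114, and the exact permutation p was 0.0286, the smallest that 4 mice against 4 allow. Relative to the median of all genes the difference was -1.53. When a library was left out it ranged from -2.15 to -1.46, with adjusted p-values from 0.0439, without Myc VD mouse 5, to 0.369, without Myc WT mouse 2. Hhex kept its direction in each of these, but did not pass the test over all genes with every library included.

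For the other 9 genes the intervals limit how large a genotype difference these 8 mice could hide. Bcl6 differed by -0.04 (95% confidence interval -0.46 to 0.38, limma adjusted p = 0.936) and Bcl11a by 0.12 (-0.28 to 0.52, adjusted p = 0.766), the narrowest intervals of the set. The paper names Bcl11a among MIZ1 target genes up-regulated in Myc VD LZ, by DESeq2 on counts, a test not repeated here. Ebf1 differed by -0.02 (-0.49 to 0.45), Bach2 by -0.20 (-0.68 to 0.27), Mef2b by -0.27 (-0.84 to 0.30) and Spib by -0.33 (-0.88 to 0.22). Irf8 differed by -0.05 (-0.65 to 0.55), Pax5 by 0.30 (-0.33 to 0.94) and Pou2af1 by -0.20 (-0.86 to 0.47), with adjusted p-values of these 7 genes from 0.536 to 0.974. All intervals of these 9 genes include 0, and none reaches 1 in either direction on TPM as deposited. Under the 3 other scalings, whose intervals are not given, Pax5 was at 0.63 to 0.65 and Bcl11a at 0.44 to 0.47 without a call, and Pax5 was at 0.56 without Myc VD mouse 8. The sign of the small differences of Bcl6, Bach2, Ebf1, Irf8, Spib, Pou2af1 and Mef2b turned to positive when TPM were rescaled to remove the shift of all genes, so that no direction is given for them.

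Comparing Myc VD LZ B cells with MBCs, where genotype and cell type differ together, Bcl6 and Mef2b were higher and Hhex lower in Myc VD LZ. These are 2 of 10 called higher against 1.36% of 13131 genes tested, and 1 lower against 2.52%. Groups did not overlap for 2 higher genes, Bcl6 and Mef2b, and for 2 lower genes, Bcl11a and Hhex, against 5.99% and 12.5% of all genes. This comparison and that of Myc WT LZ use the same MBC libraries and are not independent. Irf8 (log2 difference -0.81, limma adjusted p = 0.241), Ebf1 (-0.37, 0.578), Bach2 (0.17, 0.795), Spib (-0.03, 0.969) and Pou2af1 (-0.06, 0.937) did not pass.

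The factors with which these proteins work were measured next. Of 21 partners and corepressors, 20 were tested in MBCs against Myc WT LZ, 3 were called higher and 0 lower, and the median log2 difference was 0.40 against -0.14 for all genes. Over all genes tested in that comparison, 4.17% were called higher and 5.04% lower. Tle3, the corepressor of HHEX, was at 15.23, 15.94, 15.01 and 9.98 TPM in Myc WT LZ and at 67.64, 88.29 and 71.09 TPM in MBCs. All MBC values exceeded all LZ values, and Tle3 rose by 2.36 on the log2 scale (SE 0.31, limma adjusted p = 0.00395). Ncor1, a corepressor that BCL6 recruits, rose by 1.09 (adjusted p = 0.012), from 193 ± 20.6 TPM (SD, n = 4) to 411 ± 43.7 TPM (SD, n = 3), in the cells in which Bcl6 itself was lower. The call of Ncor1 was lost without a trend (adjusted p = 0.0703), with the mouse as a block (adjusted p = 0.118) and without Myc WT LZ mouse 2 (adjusted p = 0.0565). Tcf4, an E protein, rose by 1.06 (adjusted p = 0.0219), a call that was lost when any Myc WT LZ library was left out (adjusted p = 0.0621 to 0.0711). With the mouse as a block 1 of the 3 calls remained, without MBC mouse 3 there were 4 higher, and with a library left out the calls numbered 1 (without Myc WT LZ mouse 2) to 5 (without MBC mouse 4). Zbtb17, the gene of MIZ1, had 3.94 ± 1.17 TPM (SD, n = 4) in Myc WT LZ and 5.01 ± 3.67 TPM (SD, n = 3) in MBCs.

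Among 20 paralogs of the 10 genes, 18 were in the table and 11 passed the filter on low values, of which 1 was called higher and 0 lower in MBCs (median 0.43). The shares over all genes tested were 4.17% higher and 5.04% lower. The gene called was Spic, an ETS factor related to Spib, which was at 0.12 TPM or less in Myc WT LZ and at 14.39, 2.45 and 5.48 TPM in MBCs. It passed the filter through the MBC libraries alone, so that it could only come out higher. The log2 difference was 2.77 (limma adjusted p = 0.0244), a call that was lost when any Myc WT LZ library was left out (adjusted p = 0.0709 to 0.0903) and with the mouse as a block, which left 0 calls in the list. Spic is also a factor of splenic macrophages. Of the 8 myeloid markers 3 were tested, and 2 (Csf1r and Itgam) were called higher in MBCs, and 0 with the mouse as a block. Csf1r and Itgam also passed the filter through the MBC libraries alone, and S100a8 and S100a9 were listed at 0 in MBCs. The part of myeloid cells in the Spic values was not tested. Pax2, Ebf3 and Ebf4 were listed at 0 in all libraries.

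Of 22 other B cell transcription factors, all tested, 6 were called higher and 2 lower in MBCs, with a median of 0.90. For this list and the plasma cell factors below, the shares over all genes tested were 4.17% higher and 5.04% lower. Klf2, which maintains quiescence and homing, was at 1.35, 2.3, 2.59 and 0.91 TPM in Myc WT LZ and at 59.02, 43.31 and 64.99 TPM in MBCs. It rose by 4.37 on the log2 scale (SE 0.43, limma adjusted p = 0.00159), next to its relative Klf3 with 4.66 (adjusted p = 0.00181) and to Bhlhe41 with 4.14 (adjusted p = 0.00553). Bhlhe41 was close to 0 in LZ B cells and passed the filter through the MBC libraries alone, so that its call could only be higher. Mybl2, a factor of the cell cycle, fell by 3.26 on the log2 scale (adjusted p = 0.0193), with a loss of the call when any Myc WT LZ library was left out (adjusted p = 0.0505 to 0.0804). Of the 7 plasma cell factors that oppose this program, 6 were tested, and Atf4, a factor of the stress response, was the only one called (80.9 ± 13.9 TPM, SD, n = 4, in Myc WT LZ and 22.6 ± 16.2 TPM, SD, n = 3, in MBCs, limma adjusted p = 0.0282), lost likewise when any Myc WT LZ library (adjusted p = 0.0616 to 0.0958) or MBC mouse 1 (adjusted p = 0.0575) was left out. Prdm1, the plasma cell regulator that BCL6 and BACH2 repress, was at 2.76, 3.3, 3.87 and 2.85 TPM in Myc WT LZ and at 18.18, 0 and 6.32 TPM in MBCs, which overlap. With the mouse as a block, 5 other factors were called higher and 1 lower, and 0 plasma cell factors. Without MBC mouse 3 the calls were 7 higher and 2 lower among other factors and 1 and 1 among plasma cell factors, which also had 2 calls without MBC mouse 4.

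**Figure D4:**
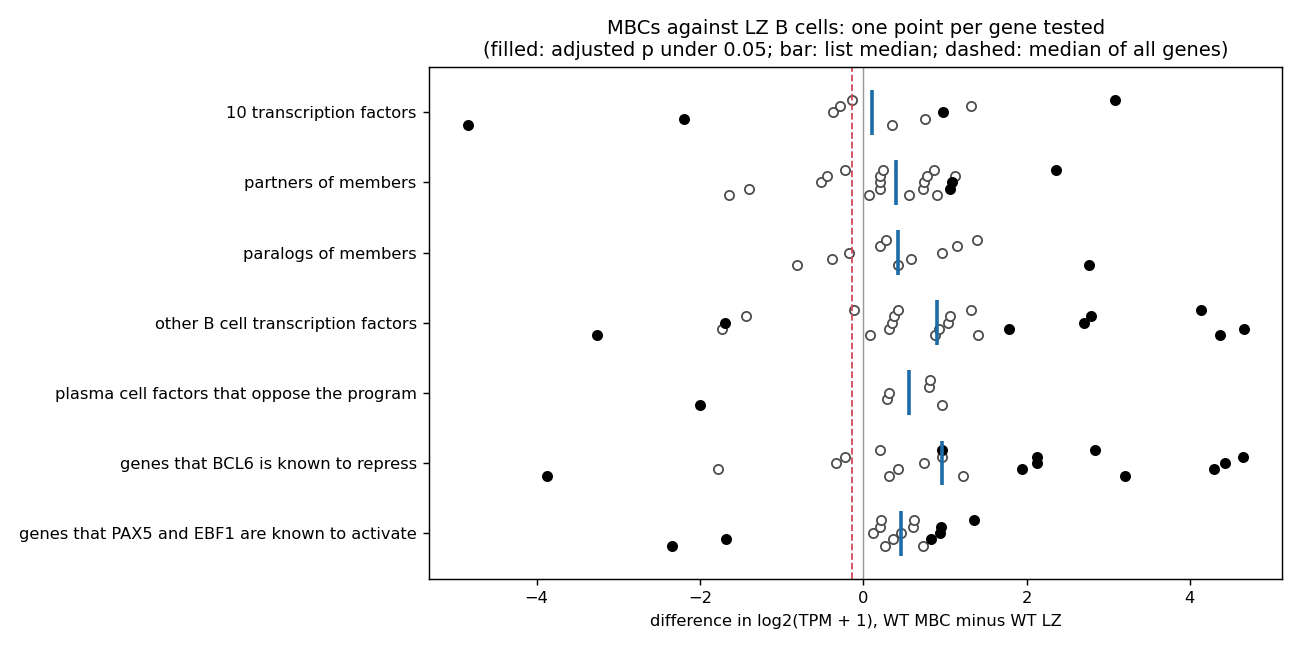
Difference in log2(TPM + 1) between Myc WT MBCs and Myc WT LZ B cells for the tested genes of the 10 transcription factors and of 6 lists of related genes, with 1 point per gene. Filled points had an adjusted p under 0.05, bars are list medians and the dashed line is the median of all genes at -0.14. Filled points lie on both sides of 0 for the 10 factors, the other B cell factors and the targets.

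Of 20 genes that BCL6 is known to repress, 19 were tested in MBCs against Myc WT LZ, 9 were called higher and 1 lower, and the median was 0.97. Over all genes tested, 4.17% were called higher and 5.04% lower, with a median of -0.14. Bcl2, the survival factor, was at 1.83, 0.99, 1.36 and 1.46 TPM in Myc WT LZ and at 45.18, 95.44 and 47.42 TPM in MBCs. S1pr1, the egress receptor, was at 3.72, 2.84, 2.44 and 1.52 TPM in Myc WT LZ and at 58.04, 71.77 and 77.87 TPM in MBCs. For both genes all MBC values exceeded all LZ values. Bcl2 rose by 4.65 on the log2 scale (limma adjusted p = 0.00149), S1pr1 by 4.30 (adjusted p = 0.00128) and Tlr7, a sensor of RNA, by 4.43 (adjusted p = 0.00146). Chek1, a checkpoint kinase of replicating cells, went the other way (fell by 3.87 on the log2 scale, adjusted p = 0.00669). With the mouse as a block, 4 genes were called higher and 1 lower, and without MBC mouse 3, 10 and 1. The 10 calls in both directions fell to 6 when Myc WT LZ mouse 1, 2 or 4 was left out. Cd80, 1 of the 9 called higher, passed the filter through the MBC libraries alone. The list holds Prdm1, Irf4, Id2, Gpr183 and Cd80, which also stand in other lists used here.

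Of 15 genes that PAX5 and EBF1 are known to activate, all tested, 4 were called higher and 2 lower in MBCs, with a median of 0.46. Over all genes tested, 4.17% were called higher and 5.04% lower. Vpreb3 fell by 1.68 on the log2 scale (limma adjusted p = 0.032). Fcer2a, the low affinity IgE receptor that also marks naive follicular B cells, rose by 1.36 (adjusted p = 0.0037), and Ciita, the regulator of MHC class II, by 0.95 (adjusted p = 0.0499). The calls of Vpreb3 and Ciita were lost when any Myc WT LZ library was left out (adjusted p = 0.0668 to 0.107 and 0.107 to 0.156), which left 2 calls in the list, and that of Vpreb3 also without MBC mouse 3 (adjusted p = 0.0568) or MBC mouse 4 (adjusted p = 0.0527). With the mouse as a block 0 genes were called higher and 1 lower, and without MBC mouse 3, 3 and 1.

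With every library included, 0 genes of these 6 lists passed in Myc VD against Myc WT LZ at the adjusted threshold by limma. Over all genes tested there, 0.00777% were called higher and 0.0389% lower. The list medians were -0.08 for partners, -0.19 for paralogs, 0.01 for other B cell factors, -0.32 for plasma cell factors, -0.13 for BCL6-repressed and -0.15 for PAX5 and EBF1-activated genes, against -0.31 for all genes. The largest differences were Id2 (-1.20, adjusted p = 0.191) and Hdac3 (-0.62, 0.412) among partners, Irf2 (0.60, 0.2) and Irf7 (-0.49, 0.684) among paralogs, and Klf3 (0.98, 0.238) and Zbtb32 (-0.84, 0.425) among other factors. Prdm1 (-0.48, 0.637) and Atf4 (-0.47, 0.334) led the plasma cell factors, and S1pr1 (-1.03, 0.284) followed Id2 among the BCL6-repressed genes. Blk (-0.86, 0.129) was among the largest of the PAX5 and EBF1-activated genes. In Myc VD LZ against MBCs, called genes numbered 0 higher and 1 lower among partners, 0 among paralogs, 2 and 5 among other factors, 0 among plasma cell factors, 1 and 7 among BCL6-repressed genes and 0 and 3 among PAX5 and EBF1-activated genes. The shares over all genes tested were 1.36% higher and 2.52% lower. Bhlhe41, S1pr1 and Cd80, among the list genes called lower, averaged under 1 TPM in Myc VD LZ and passed the filter through the MBC libraries alone, so that they could only come out lower. Without Myc VD mouse 7 the called genes of the lists fell to 4 among other factors, 3 among BCL6-repressed and 0 among PAX5 and EBF1-activated genes. The BCL6-repressed genes had 4 calls without Myc VD mouse 6 or 8 and 5 without Myc VD mouse 5 or MBC mouse 1, and the PAX5 and EBF1-activated genes had 1 without Myc VD mouse 6 or MBC mouse 1. With 3 groups in 1 fit there were 3 calls among partners, 2 among paralogs, 13 among other factors, 2 among plasma cell factors and 8 among PAX5 and EBF1-activated genes. Without a trend there were 3 among other factors, 5 among BCL6-repressed and 0 among PAX5 and EBF1-activated genes, and without a filter 3, 4 and 1. Partners had 3 calls at a mean of at least 5 TPM, and plasma cell factors had 1 under median ratio scaling, under quantile normalization and without MBC mouse 4.

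To see which genes run in parallel with the 4 called factors, Pearson's r of log2(TPM + 1) was ranked over 6381 genes of at least 10 TPM on average in the 11 libraries, of which 3 mice gave a pair each. Bcl6 was most alike to Mef2b (r = 0.989), Sqle (0.988) and Prr11 (0.988), and Mef2b to Atad5 (0.99), Bcl6 (0.989) and Cdc45 (0.987). Bcl11a was most alike to Phc3 (0.981), Cd44 (0.972) and Fcer2a (0.972), and Hhex to Pex11g (0.978), Ids (0.964) and Gtpbp10 (0.962). These values mostly describe the step between LZ cells and MBCs: within the 8 LZ libraries r of Bcl6 with Mef2b was 0.536, and r of Hhex with Bcl6 went from -0.834 over all libraries to 0.0618. By Spearman's rho, 0 of the 3 genes were again among the nearest for Bcl6, Mef2b and Bcl11a, and 1, Pex11g, for Hhex.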

How the data were processed

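Reads of all 11 libraries were aligned by the authors with STAR (2.5.2a) and quantified with RSEM (1.3.0) on Ensembl genes (GRCm38), counting by strand, and the values deposited per gene are TPM with 2 decimals. TPM are scaled to a fixed total, so a library in which ribosomal RNA takes more leaves less for other genes, and depth and counting error are unknown. The authors tested their own counts with DESeq2 (1.18.1 per the submitters' processing notes), which were not used here.

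Symbols and gene spans came from GENCODE M21, which named 48435 of 48795 genes, and promoter windows from RefSeq (GRCm38.p6), which matched 10 of 10 genes. Groups were taken from the sample labels. Each pair of groups was compared with limma 3.58.1 in R 4.3.3 (eBayes with a trend) on log2(TPM + 1), keeping genes whose mean reached 1 TPM, two-sided, with Benjamini-Hochberg adjustment over all genes at 0.05. A gene is called where it passed. The 10 genes were also tested by exact two-sided permutation over 70 groupings of 4 libraries against 4 or 35 of 3 against 4 (scipy 1.17.1), for which the smallest p is 0.0286. In MBCs against Myc WT LZ these groupings, like the main limma fit, ignore that MBC libraries share a mouse with LZ libraries. The fits were tested on simulated data.

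The 10 genes, the lists and the markers were chosen with earlier results of these data known. Named were all 10 genes and, of each list, at most the 4 called genes with the largest difference or, where none was called, the 2 largest; Zbtb17, the MEF2 genes, Prdm1 as a gene of MBCs, genes listed at 0, and single marker genes were added after their values were seen, and 1 gene that this rule gives is not reported here. Alternatives were to leave out each library, to block on the mouse, to fit all 3 groups together, to drop the trend, to scale by median ratio or quantiles, to remove ribosomal RNA, mitochondrial and immunoglobulin genes, to filter at 5 TPM or not at all, to add 0.1 in place of 1, and Spearman's rho. Counts of groups without overlap when MBC mouse 3 is left out were added after seeing the data. Titles show that MBC and LZ libraries of mice 1, 3 and 4 come from the same animal, which is why the pairing is used as a block. The deviations of such pairs from their group means correlated with r = 0.00507, 0.0115 and -0.047 over 13245 genes.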

Additional observations from a re-analysis of the deposited data

Results flagged for a closer look

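Of 20 sets of 4 LZ libraries, 2 genotypes for each of the 10 genes, 1 held a library past Dixon's critical value, where chance gives about 1 in 20. It was Irf8 in Myc WT LZ, with mouse 4 at 91.43 TPM below the other 3 mice at 121.94 to 124.71 TPM, a gap of 0.917 of the range. The title of Myc WT mouse 4 carries another code than those of the other 3 Myc WT mice, and in Myc VD LZ Irf8 covered 69.33 to 162.40 TPM.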

How the results depend on the processing

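Bcl6, Mef2b and Hhex were called in MBCs against Myc WT LZ under each of the 16 alternatives. The number of the 10 genes called there was 4, and 3 to 6 with a library left out. All genes called numbered 1219 of 13245, 608 without a filter, and 342 (without Myc WT LZ mouse 2) to 2754 (without MBC mouse 4) with a library left out. With the mouse as a replicate block, on the 3 mice with both libraries, 248 were called (130 higher, 118 lower), Bcl11a lost its call and Bcl6, Mef2b and Hhex did not. In Myc VD against Myc WT LZ, 6 genes were called, 0 with a pseudocount of 0.1, no filter, median ratio scaling or 3 groups in 1 fit, 1 without ribosomal RNA, mitochondrial and immunoglobulin genes, 15 at a mean of at least 5 TPM, and 0 to 254 (without Myc VD mouse 5) with a library left out, with 0 to 1 of the 10 genes. In Myc VD LZ against MBCs, 509 were called, 202 without a filter, 284 without a trend, 1578 with 3 groups in 1 fit, and 203 to 731 with a library left out. By Spearman's rho 0 of the 3 most alike genes were shared for Bcl6, Mef2b and Bcl11a and 1 for Hhex.

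Signs turned in genes that were not called. In Myc VD against Myc WT LZ, median ratio scaling, quantile normalization and removal of ribosomal RNA, mitochondrial and immunoglobulin genes gave 0.30, 0.28 and 0.31 for Bcl6, 0.14, 0.12 and 0.15 for Bach2, 0.32, 0.27 and 0.33 for Ebf1, 0.29, 0.25 and 0.30 for Irf8, 0.02, 0.01 and 0.02 for Spib, 0.15, 0.20 and 0.15 for Pou2af1 and 0.07, 0.01 and 0.08 for Mef2b. With a library left out the values ranged from -0.12 to 0.07 for Bcl6, -0.14 to 0.16 for Ebf1, -0.23 to 0.17 for Irf8, -0.40 to 0.06 for Pou2af1 and -0.99 to 0.10 for Irf7. In MBCs against Myc WT LZ, Pou2af1 turned to 0.10 (quantile normalization) and ranged from -0.30 to 0.02 (without Myc WT LZ mouse 1). In Myc VD LZ against MBCs, Ebf1 turned to 0.10 (quantile normalization), Spib to 0.27, 0.47 and 0.32 and Pou2af1 to 0.25, 0.10 and 0.29 under the 3 scalings, and with a library left out Spib ranged from -0.29 to 0.19 and Pou2af1 from -0.26 to 0.19. The cause of these changes was not tested. TPM hold no depth, so the counting error of low values, such as those of Hhex in LZ and Mef2b in MBCs, cannot be estimated.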
